A study of Mus musculus with 14 samples.

Results

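The genes described here are the matrix metalloproteinases and related proteases Mmp2, Mmp3, Mmp12, Mmp14 and Adamts1, and the 4 Timp inhibitors Timp1, Timp2, Timp3 and Timp4. They were taken by symbol, and all 9 were found among the 55335 genes of the count tables. Single cells of whole mouse spinal cord were profiled in 14 libraries from animals of age P115-120 days. SOD1G93A (3 libraries, strain B6SJL-Tg(SOD1*G93A)1Gur/J) carried a mutant human SOD1 transgene, which causes motor neuron disease in mice. Clec7a-KO (4 libraries, strain B6.129S6-Clec7atm1Gdb/J) lacked the myeloid receptor gene Clec7a, SOD1G93A/Clec7a-KO (4 libraries) combined both alterations, and nTg (3 libraries) had neither. The study set out to ask how Clec7a shapes the immune responses of microglia in this disease model. The strains of nTg and SOD1G93A/Clec7a-KO are given only by these genotype names, so a difference in strain background and one in genotype cannot be told apart. The transgene is human SOD1 under its own promoter, so it is not limited to one cell type.

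Metalloproteinases are zinc-dependent enzymes that cut proteins of the extracellular matrix and shed proteins from cell surfaces, and Timp proteins block their catalytic site. Mmp2 is a gelatinase, Mmp3 a stromelysin, Mmp12 the macrophage elastase and Mmp14 a membrane-anchored protease, while Adamts1 cuts aggrecan and versican. Timp2 has a second role, since it bridges the proform of Mmp2 to Mmp14 at the cell surface, where Mmp2 is activated. Timp3 stays bound to the matrix and also blocks several Adam and Adamts enzymes. In the nervous system, Timp1 is known as a gene that astrocytes switch on after injury, and Timp4 as the Timp with a narrow tissue range that includes brain.

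The files held 3096 to 12367 barcodes and 28819852 to 141204910 counts of unique molecular identifiers (UMIs, one per captured RNA molecule) per library. After filtering, 89225 of 108892 barcodes were kept. Cells were clustered, and clusters were given a cell class from marker genes, so a class name here stands for cells like that class. Microglia (49941 cells) were the largest class, followed by endothelial cells (11349), ependymal cells (7658), astrocytes (5603) and oligodendrocyte precursors (3912). Libraries shared 2 to 44 barcodes per pair, at most 0.474% of the smaller library. Clec7a itself followed the labels, with 57449 to 101134 UMIs per SOD1G93A library, 755 to 1767 in nTg, 74 to 240 in SOD1G93A/Clec7a-KO and 33 to 110 in Clec7a-KO.

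The sequences around the start sites of 5 of the genes are shown because their levels, or in the case of Mmp3 the near lack of UMIs, carry the results below. They come from RefSeq on GRCm38.p6, run 5′ to 3′ on the gene's strand, and span 250 bases before to 50 bases after the start site. Capitals mark matches on either strand to the AP-1 motif TGANTCA, to its variant TGAGTAA, to the TATA box TATAAA and to the GC box GGGCGG. The Mmp12 entry is the second of a pair, and its start site lies 2993 bases into the gene as GENCODE draws it. The first of the pair, with its start site 16 bases from the GENCODE start, held no match to any of these motifs.
Timp1 (chrX:20869916-20870215, plus strand): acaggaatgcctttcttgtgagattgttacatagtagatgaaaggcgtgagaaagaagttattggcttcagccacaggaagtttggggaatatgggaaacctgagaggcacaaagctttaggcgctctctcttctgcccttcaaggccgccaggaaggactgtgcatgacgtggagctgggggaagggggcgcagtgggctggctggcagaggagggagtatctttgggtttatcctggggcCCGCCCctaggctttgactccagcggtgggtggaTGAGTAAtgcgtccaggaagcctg
Timp2 (chr11:118355362-118355661, minus strand): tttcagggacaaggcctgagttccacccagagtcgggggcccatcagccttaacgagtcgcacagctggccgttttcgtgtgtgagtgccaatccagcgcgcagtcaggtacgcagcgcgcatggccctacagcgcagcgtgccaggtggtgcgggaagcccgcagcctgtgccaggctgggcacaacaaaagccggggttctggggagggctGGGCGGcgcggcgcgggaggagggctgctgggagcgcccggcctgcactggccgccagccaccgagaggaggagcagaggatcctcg
Mmp12 (chr9:7347124-7347423, plus strand): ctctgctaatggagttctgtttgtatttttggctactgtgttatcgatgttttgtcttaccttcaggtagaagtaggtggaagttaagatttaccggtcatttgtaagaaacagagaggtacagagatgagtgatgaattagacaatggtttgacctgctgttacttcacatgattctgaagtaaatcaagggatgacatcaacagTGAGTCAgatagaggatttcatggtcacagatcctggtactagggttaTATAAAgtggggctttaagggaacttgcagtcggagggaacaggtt
Mmp3 (chr9:7445572-7445871, plus strand): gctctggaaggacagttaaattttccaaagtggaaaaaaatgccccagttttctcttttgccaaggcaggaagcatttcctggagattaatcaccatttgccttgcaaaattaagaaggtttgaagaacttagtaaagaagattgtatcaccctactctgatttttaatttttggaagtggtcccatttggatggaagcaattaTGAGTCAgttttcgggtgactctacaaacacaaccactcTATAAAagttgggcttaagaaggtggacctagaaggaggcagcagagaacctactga
Mmp14 (chr14:54431348-54431647, plus strand): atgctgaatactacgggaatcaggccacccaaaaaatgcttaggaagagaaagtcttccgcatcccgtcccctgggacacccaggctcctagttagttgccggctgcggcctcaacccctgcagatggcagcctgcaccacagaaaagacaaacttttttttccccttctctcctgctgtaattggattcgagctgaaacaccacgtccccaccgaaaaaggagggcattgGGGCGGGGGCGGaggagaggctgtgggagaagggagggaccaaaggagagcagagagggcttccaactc
A promoter was listed for 8 of the 9 genes. The AP-1 motif was found in 2 of these 8 genes, against 2425 of all 27025 genes listed (7.81% of 32851 promoters). It lay 44 bases before the start site in the second Mmp12 entry and 46 bases before it in Mmp3. Timp1 held the variant TGAGTAA at 27 bases after its start, in 1 of 8 genes, against 836 of all genes (2.68% of promoters). That variant was chosen for the search after the sequence was seen. TATAAA was found in 3 of 8 genes (Mmp12, Mmp3 and Adamts1), against 4234 genes (13.6% of promoters), and GGGCGG in 5 of 8 (Timp1, Timp2, Timp3, Mmp14 and Adamts1), against 10324 genes (35.7% of promoters). The TATAAA match lay 5 bases after the start site in the second Mmp12 entry, and 7 and 32 bases before it in Mmp3 and Adamts1. Such matches describe letters in a window and do not show that a factor binds there.

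In the genome (GENCODE vM21, GRCm38), 3 of the 4 Timp genes lie inside a synapsin gene on the opposite strand. Timp1 (chrX:20870166-20874735) lies within Syn1 (chrX:20860511-20921004), Timp3 (chr10:86300372-86349506) within Syn3 (chr10:86055125-86498896) and Timp4 (chr6:115241892-115252205) within Syn2 (chr6:115134902-115282006). Whether the counting used strand is not given in the sources used here, so reads of a Timp gene and of its host gene may not be separable. In counts per 1000000 UMIs of the class (CPM), the pooled level over all astrocytes was 6.89 for Syn1, 74.7 for Syn2 and 21.7 for Syn3. In neurons the levels were 138, 488 and 18.8 in that order, and 1078 Syn1 UMIs stood beside 6 Timp1 UMIs. In oligodendrocyte precursors they were 43.1, 167 and 17.5, with 1365 Syn1 UMIs beside 20 Timp1 UMIs. How far reads of these genes were mixed was not tested. Timp2 (chr11:118301069-118355740), Mmp12 (chr9:7344381-7369499), Mmp3 (chr9:7445822-7455975), Mmp14 (chr14:54431612-54445364), Adamts1 (chr16:85793827-85803113) and Mmp2 (chr8:92827291-92853420) lie outside the synapsin genes.

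Pooled over the 14 libraries, each of the 8 detected genes had a leading source among the cell classes. Of the 729439 Timp2 UMIs in kept cells, 89.8% came from microglia and 5.78% from ependymal cells, where microglia made up 56.0% of the cells. Microglia also gave 97.9% of the 58051 Mmp12 UMIs, 73.3% of the 374823 Adamts1 UMIs, 71.5% of the 28739 Mmp14 UMIs and 71.6% of the 10058 Mmp2 UMIs. The other Timp genes came from elsewhere. Astrocytes, 6.28% of the cells, gave 71.8% of the 2653 Timp1 UMIs and 46.9% of the 43359 Timp4 UMIs. Endothelial cells, 12.7% of the cells, gave 46.8% of the 190518 Timp3 UMIs, and a cluster with both endothelial and mural genes (cluster 19) gave another 26.4%. Mmp3 was represented by 1 UMI, in an endothelial cell of nTg replicate 3. These pooled shares follow the libraries with many cells of a class, and single libraries differed. The astrocyte share of Timp1 averaged 45.7% ± 35.0 over libraries (0 to 83.4%). Up to 50% of a library's Timp1 UMIs came from endothelial cells or neurons, and 92 of the 107 in Clec7a-KO replicate 2 came from the fibroblast-gene cluster 23. Timp1 shares of libraries without the transgene rest on few UMIs. Over all barcodes, nTg libraries held 12 to 27 Timp1 UMIs and Clec7a-KO replicate 3 held 4. Neurons held 6 Timp1 UMIs over all libraries. The astrocyte share of Timp4 ran from 23.4% to 64.0%, with up to 58.2% in oligodendrocyte precursors. The microglial share of Mmp2 ran from 27.1% to 91.0%, with up to 67.9% in oligodendrocyte precursors, and that of Mmp14 from 21.2% to 91.4%, with up to 41.3% in astrocytes. The microglial share of Mmp12 ran from 33.4% to 99.6%, with up to 65.0% in border-associated macrophages. For Adamts1 the microglial share ran from 33.3% to 93.3%, with up to 44.7% in endothelial cells. For Timp2 it ran from 52.4% to 97.9%, with up to 38.1% in ependymal cells. The leading class of the pooled UMIs was the same when cells were clustered at a resolution of 0.5 in place of 1.0.

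**Figure D1:**
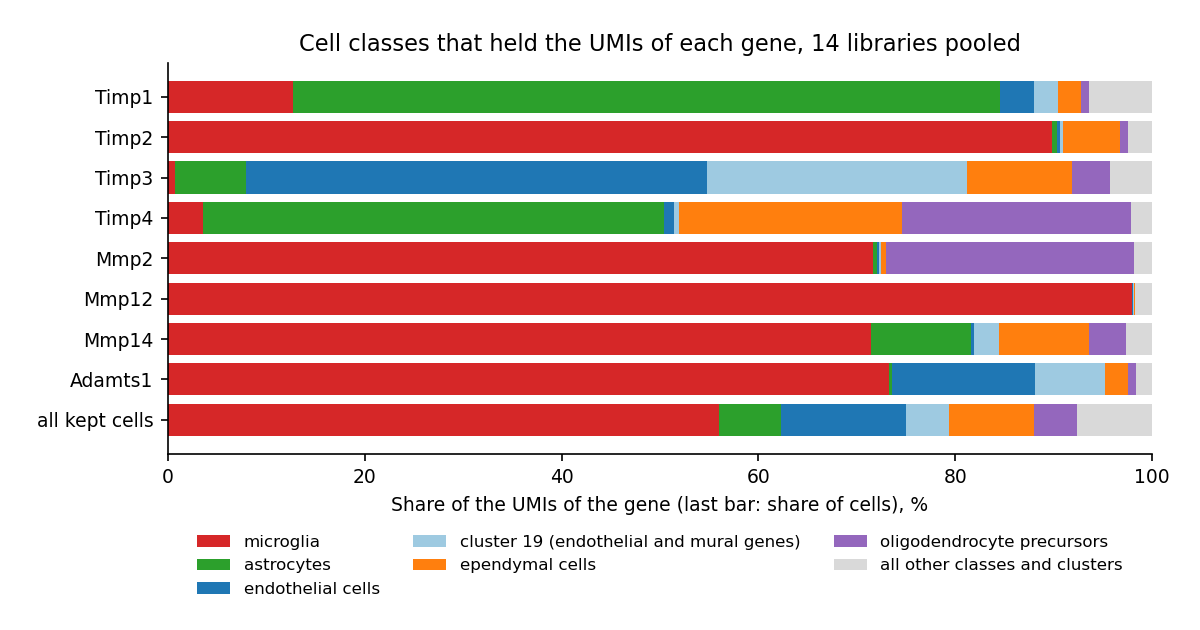
Share of each gene's UMIs (percent, pooled over the 14 libraries) by cell class, with the share of all kept cells in the last bar. Timp2, Mmp12, Adamts1, Mmp14 and Mmp2 were led by microglia, Timp1 and Timp4 by astrocytes and Timp3 by endothelial cells.

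Shares of UMIs follow cell numbers, so levels per cell class were read in CPM, scaled with TMM, a method that centres the libraries on their common genes. In nTg the order for Timp4 was astrocytes at 636 ± 52.2 (SD, n = 3), oligodendrocyte precursors at 298 ± 21.3, ependymal cells at 84.1 ± 9.87 and neurons at 48.97 ± 5.19, each step larger than the spread. Among the named classes the order for Timp3 was endothelial cells at 886 ± 98.1, astrocytes at 504 ± 50.8 and mural cells at 308 ± 75.0. Cluster 19, with endothelial and mural genes, held Timp3 at 767 ± 80.3. Below those, Timp3 in oligodendrocyte precursors (234 ± 10.7) and ependymal cells (205 ± 34.2) did not differ beyond their spread. In the same nTg libraries microglia held Timp3 at 3.39 ± 1.25 and Timp4 at 3.56 ± 1.19.

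Timp2 in nTg was at 406 ± 24.4 in microglia, 387 in border-associated macrophages (2 libraries, 353 and 422) and 354 ± 16.1 in ependymal cells, with microglia and the macrophages within their spread. Neurons followed at 246 ± 129.9, a wide spread over 3 libraries that reaches the ependymal level. Astrocytes held Timp2 at 48.0 ± 6.55 and endothelial cells at 10.8 ± 0.746. Timp1 was low in every nTg class, with the highest mean 1.59 ± 1.99 in mural cells and 0.633 ± 0.726 in astrocytes.

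Among the proteases, the Mmp2 level in CPM was higher in oligodendrocyte precursors (68.0 ± 7.14 in nTg) than in microglia (7.21 ± 1.80), and the precursors gave 612 Mmp2 UMIs in nTg against 454 from microglia. Mmp14 was highest in nTg astrocytes at 102 ± 6.06, followed by mural cells at 35.7 ± 14.5, oligodendrocyte precursors at 27.1 ± 1.62 and ependymal cells at 24.4 ± 3.67, which overlapped one another, and microglia at 15.1 ± 1.61. Adamts1 was at 638 ± 206 in nTg endothelial cells and 425 ± 85.2 in microglia, within their spread, and at 201 ± 40.5 in mural cells. Mmp12 was at 3.11 ± 2.81 in nTg microglia and at or below 0.105 in the other nTg classes tested.

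Genes with the most similar profile over the 9 named classes were found by Pearson's r of log2(CPM + 1), a description over 9 points that share libraries. Mmp12 was closest to Ptafr (0.996) and C5ar1 (0.993), which encode receptors of myeloid cells. Timp1 was closest to Agt (0.989) and Aldh1l1 (0.987), both known astrocyte genes, and Timp4 to Itgb8 and Gpld1 (0.994 each). Timp3 was closest to Tnfrsf19 (0.978) and Cavin3 (0.971), and Timp2 to Cotl1 (0.890) and Arl4c (0.889). Mmp14 was closest to Selenos (0.964), Mmp2 to Ppp1r14b (0.947) and Adamts1 to Mapre1 (0.906).

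Disease groups were compared per class with edgeR's quasi-likelihood test and Benjamini-Hochberg adjustment over all genes of the class. SOD1G93A against nTg and SOD1G93A/Clec7a-KO against Clec7a-KO share no library and measure the effect of the transgene with and without Clec7a. In microglia, 8 of the 9 genes passed the filter on low counts. Timp1, Timp2, Mmp12 and Mmp14 rose in SOD1G93A and none fell, where 19.9% of the 16448 genes tested rose and 33.3% were called. In SOD1G93A/Clec7a-KO against Clec7a-KO, 5 of the 8 rose (the same 4 and Mmp2) and 3 fell (Timp3, Timp4 and Adamts1), where 46.7% of genes were called. The mean log2 TMM factor of microglia was lower with the transgene, by a difference of −0.45 and −0.51 in these comparisons. A lower factor raises the scaled levels, so TMM moved the log2 fold changes upward, and all changes are relative to that scaling.

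The cell states behind the word microglia differed between the groups. Clusters 7 and 11 held most nTg and Clec7a-KO microglia, and cluster 7, led by Crybb1 and P2ry12, made up 15.7% ± 14.2 of nTg cells and 31.0% ± 14.5 of Clec7a-KO cells. It made up 2.69% ± 2.85 of SOD1G93A cells and 2.63% ± 1.80 of SOD1G93A/Clec7a-KO cells, whose microglia lay mainly in clusters 0 to 6 and 12. Cluster 11, led by Xist and Tsix, was uneven over libraries, at 0.645% to 23.3% of cells in nTg and 0.131% to 26.2% in Clec7a-KO. It made up 0% in SOD1G93A and at most 1.21% in SOD1G93A/Clec7a-KO. Xist is the gene from which sex was read for a covariate. The labels do not give sex, and its part in these clusters was not tested. Microglia as a whole were 31.2% ± 3.53 of nTg cells and 67.0% ± 2.18 of SOD1G93A cells. The summed level of 22 dissociation stress genes in microglia was 37931 to 48112 CPM in nTg, 40947 to 60854 in Clec7a-KO, 24604 to 28311 in SOD1G93A and 24419 to 33722 in SOD1G93A/Clec7a-KO. Of the 22, all tested, 10 fell and 0 rose in SOD1G93A against nTg, where 13.4% of microglial genes fell and 19.9% rose. Their part in the results below was not tested.

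Timp2, the inhibitor that also helps to activate Mmp2, rose in microglia of both disease groups. Its level was 416, 378 and 424 CPM in nTg replicates 1 to 3 and 1423, 1519 and 1248 in SOD1G93A replicates 1 to 3. It was 457, 433, 346 and 599 in Clec7a-KO replicates 1 to 4 and 1370.5, 1621, 1519 and 1371 in SOD1G93A/Clec7a-KO replicates 1 to 4. All 7 libraries with the transgene lay above all 7 without it. Groups that do not overlap were common in microglia, at 54.2% of genes in SOD1G93A against nTg and 36.7% in SOD1G93A/Clec7a-KO against Clec7a-KO. The log2 fold change was 1.78 ± 0.19 (SE, adjusted p = 1.2e-05) in SOD1G93A against nTg and 1.68 ± 0.17 (adjusted p = 2.9e-06) in SOD1G93A/Clec7a-KO against Clec7a-KO. Within the P2ry12-led cluster 7 the Timp2 difference was smaller, with means of 494 ± 43.5 in nTg and 657 ± 98.2 in SOD1G93A, and 517 ± 101 in Clec7a-KO and 698 ± 54.0 in SOD1G93A/Clec7a-KO.

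Nearly every microglia held Timp2 RNA in all groups. Before thinning, a Timp2 UMI was found in 92.1% of nTg, 91.3% of Clec7a-KO, 97.7% of SOD1G93A and 97.9% of SOD1G93A/Clec7a-KO microglia. With each cell thinned to 1000 UMIs the shares were 36.2%, 37.9%, 64.4% and 64.4% in the same order. The median microglia held 7730 to 10535 UMIs per nTg library and 8887 to 21827 per SOD1G93A library. Endothelial cells, where the Timp2 level was low, held a Timp2 UMI in 9.28% of nTg and 17.3% of SOD1G93A cells before thinning and in 1.01% and 3.39% after it, at median depths of 7184 to 8409 and 3926 to 8052 UMIs.

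Mmp12, the macrophage elastase, was near 0 in some control libraries and rose in microglia of both disease groups. Its level was 5.59, 0.0549 and 3.69 CPM in nTg and 104, 109.7 and 113 in SOD1G93A. It was 6.14, 1.17, 1.49 and 12.4 in Clec7a-KO replicates 1 to 4 and 106, 98.5, 313 and 276 in SOD1G93A/Clec7a-KO replicates 1 to 4. The groups with and without the transgene did not overlap, and replicates 3 and 4 of SOD1G93A/Clec7a-KO stood above all other libraries. The log2 fold change of Mmp12 was 5.09 ± 0.96 (adjusted p = 0.0011) in SOD1G93A against nTg and 5.27 ± 0.83 (adjusted p = 0.00015) in SOD1G93A/Clec7a-KO against Clec7a-KO. The first was 5.99 without nTg replicate 1 and the second 6.02 without Clec7a-KO replicate 4.

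Mmp12 was found in a minority of cells. Thinned to 1000 UMIs, 0.167% of nTg, 0.170% of Clec7a-KO, 3.67% of SOD1G93A and 5.76% of SOD1G93A/Clec7a-KO microglia held an Mmp12 UMI, and 0.422%, 0.5002%, 13.5% and 16.8% did before thinning. The thinned share in endothelial cells, read here as background, was 0% in nTg and Clec7a-KO, 0.209% in SOD1G93A and 0.480% in SOD1G93A/Clec7a-KO. It was unevenly spread over the microglia clusters. In SOD1G93A it was highest in cluster 1, led by Acod1 and Il23a (208 ± 32.3), and cluster 3, led by Gpnmb and Atp6v0d2 (194 ± 50.5). Cluster 12, led by Mki67 and Top2a of the cell cycle, held 75.2 ± 23.6, cluster 0 held 49.5 ± 28.6 and the H2-Aa and Cd74 cluster 4 held 28.8 ± 5.07. Cluster 2 was at 14.97 ± 13.5, cluster 6 at 8.34 ± 4.23 and cluster 5, led by Gpr84, at 5.25 ± 3.53. No Mmp12 UMI was seen in cluster 7 of the 3 SOD1G93A libraries, where 3 UMIs would correspond to 1.03 to 3.91 CPM in a library.

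The same clusters led in SOD1G93A/Clec7a-KO, with Mmp12 at 394 ± 239 in cluster 3 and 375 ± 193 in cluster 1. Further means there were 121 ± 139.7 in cluster 0, 77.9 ± 27.6 in cluster 4, 62.9 ± 59.9 in cluster 12 59.0 ± 31.0 in cluster 2, 38.4 ± 40.8 in cluster 6 and 22.2 ± 10.9 in cluster 5. Clusters were formed with these genes left out of the variable genes, and the values per cluster carry no test.

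**Figure D2:**
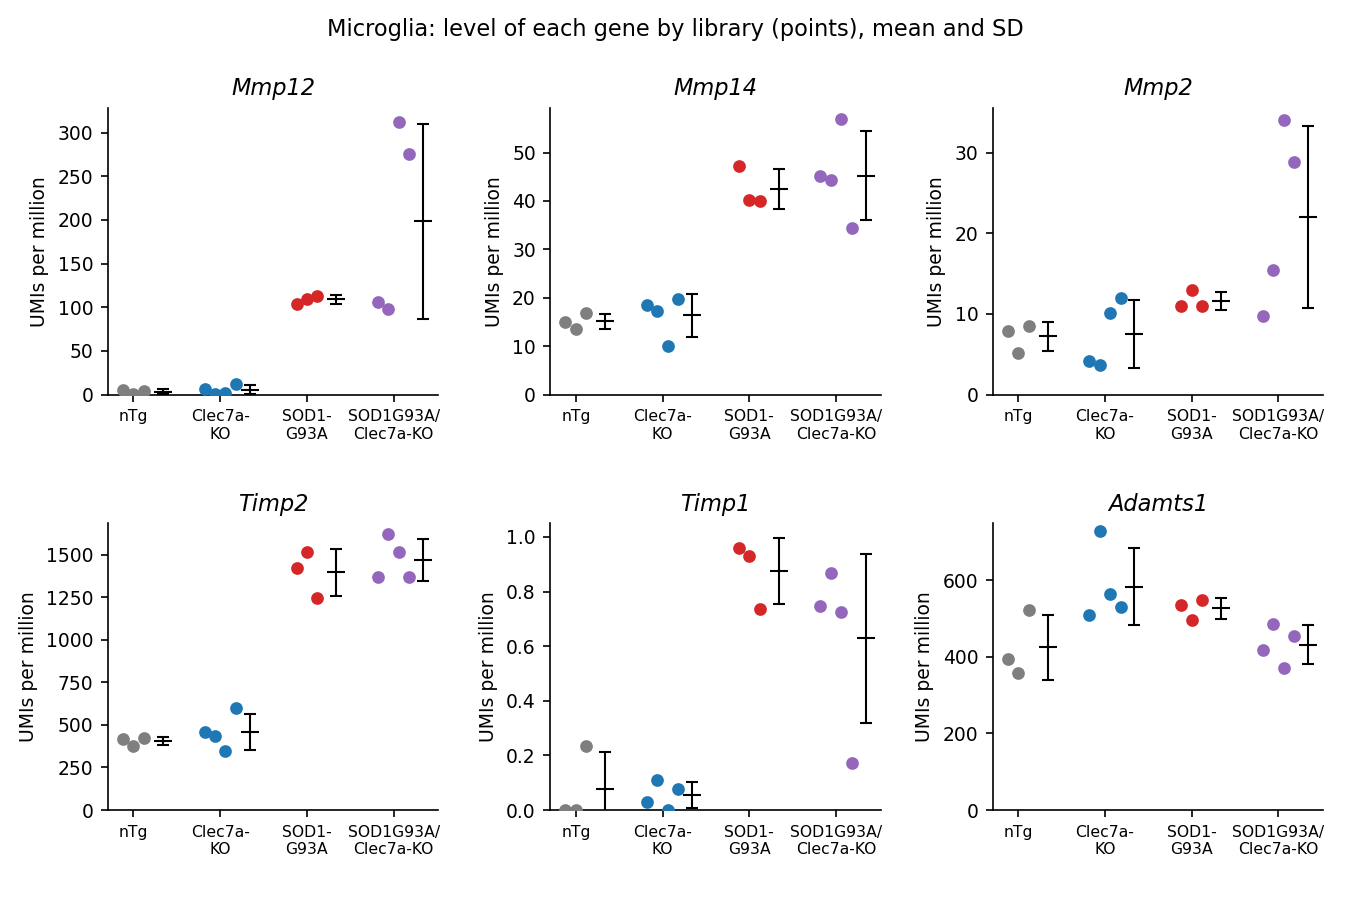
CPM in microglia for 6 genes, one point per library by group, with the group mean and SD. Timp2, Mmp12 and Mmp14 separate the groups with and without the transgene, and Mmp12 and Mmp2 show 2 SOD1G93A/Clec7a-KO libraries above the rest.

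Mmp14, the membrane-anchored activator of Mmp2, rose as well. Its level in microglia was 15.02, 13.6 and 16.8 CPM in nTg and 47.2, 40.2 and 39.9 in SOD1G93A. It was 18.5, 17.3, 9.95 and 19.8 in Clec7a-KO and 45.2, 44.2, 56.9 and 34.5 in SOD1G93A/Clec7a-KO. The groups did not overlap in either comparison. The log2 fold change was 1.49 ± 0.23 (adjusted p = 0.00021) and 1.46 ± 0.20 (adjusted p = 3.8e-05). Inside cluster 7 Mmp14 was at 16.9 ± 1.79 in nTg, 17.3 ± 4.17 in Clec7a-KO, 29.2 ± 6.53 in SOD1G93A and 32.1 ± 12.3 in SOD1G93A/Clec7a-KO.

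Mmp2 in microglia passed the test in 1 of the 2 disease comparisons. It was at 7.92, 5.16 and 8.55 CPM in nTg and 10.9, 12.95 and 11.01 in SOD1G93A, with no overlap between the groups. The fitted log2 fold change of 0.69 ± 0.47 did not pass the test (adjusted p = 0.27), but did with library number as a covariate (1.36, 0.0020) and with only the 2 groups fitted (0.69, 0.023). The library numbers of SOD1G93A (1, 5 and 6) and nTg (8, 9 and 12) do not overlap, so that covariate cannot be fully told apart from the group. Mmp2 was at 4.13, 3.62, 10.1 and 11.9 in Clec7a-KO and 9.78, 15.5, 34.0 and 28.8 in SOD1G93A/Clec7a-KO, groups that overlapped, and rose by 1.59 ± 0.41 on the log2 scale (adjusted p = 0.0062). As for Mmp12, replicates 3 and 4 of SOD1G93A/Clec7a-KO were the highest of all libraries. In the difference of the Clec7a effects, Mmp2 had a value of 0.90 ± 0.62 (unadjusted p = 0.17), so the transgene effect on Mmp2 was not shown to differ with Clec7a.

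Adamts1, the protease of aggrecan and versican, was present in microglia of every group. Its level was 396, 358 and 521 CPM in nTg and 534, 496 and 549 in SOD1G93A, overlapping, with a log2 fold change of 0.31 ± 0.18 (adjusted p = 0.21). The direction of this difference flipped without TMM, where the means were 516 in nTg and 468 in SOD1G93A. In Clec7a-KO it was at 509.8, 729, 564 and 530.5, above the 419, 486, 370.0 and 454 of SOD1G93A/Clec7a-KO. That fall of 0.43 ± 0.16 on the log2 scale (adjusted p = 0.037) did not pass in 7 of 21 alternatives, with values from −0.95 without TMM (adjusted p = 0.00036) to −0.29 without the Gpnmb-led cluster 3. These were leaving out Clec7a-KO replicate 2 (adjusted p = 0.13) or 3 (0.055), SOD1G93A/Clec7a-KO replicate 1 (0.069) or 3 (0.062) or cluster 3 (0.17), no removal of doublets (0.060) and no filter on low counts (0.084). Cluster 3 had the lowest Adamts1 of the main clusters in both disease groups, at 188 ± 50.1 in SOD1G93A and 151 ± 54.2 in SOD1G93A/Clec7a-KO, against 674 ± 111 and 609 ± 67.7 in cluster 0.

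**Figure D3:**
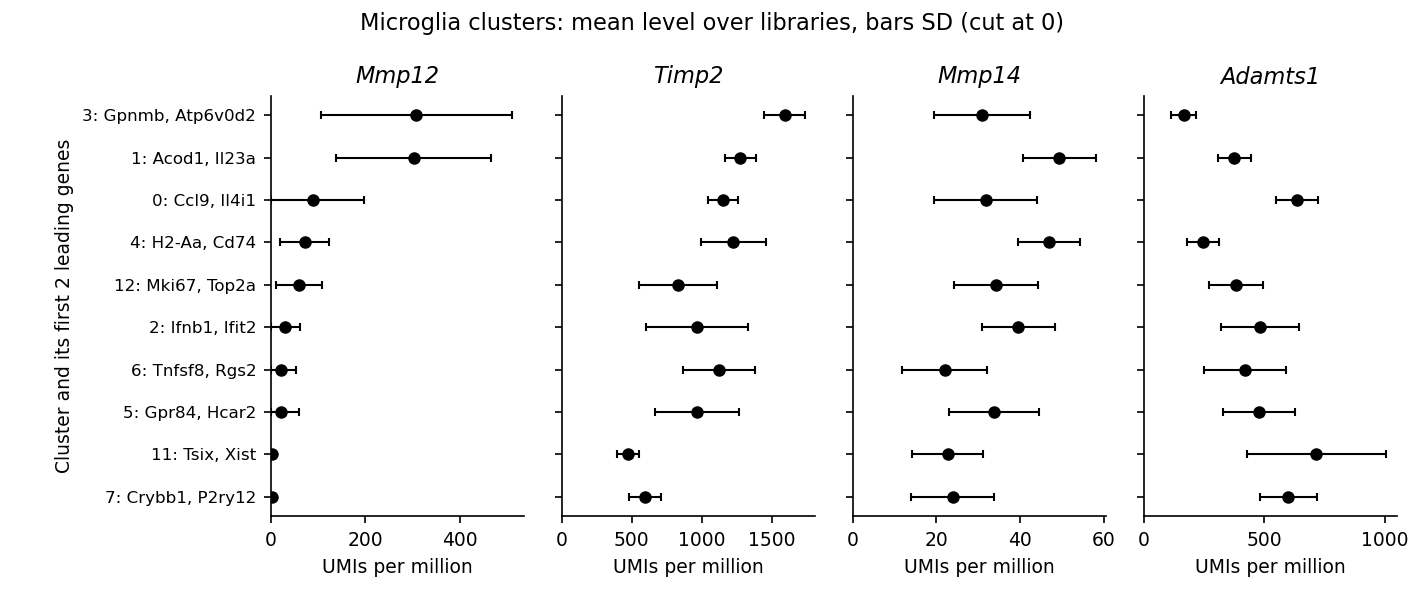
CPM of Mmp12, Timp2, Mmp14 and Adamts1 in the 10 microglia clusters, as mean and SD over libraries of all groups together. The bars are not split by group, and the values of the disease groups for Mmp12 and Adamts1 are given in the text. There the Gpnmb-led and Acod1-led clusters held the highest Mmp12 means, and the Gpnmb-led cluster the lowest Adamts1 of the main clusters. Timp2 is lowest in the clusters led by P2ry12 and by Xist and Tsix. These held few cells of the disease groups, so their Timp2 means mix cluster with genotype.

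Timp1, Timp3 and Timp4 were present at very low levels in microglia, and the levels expected from free RNA are of similar size. The expected level was the level of the gene in its leading class times the share of that class's markers seen in microglia, without TMM. Timp1 rose in microglia from 3 UMIs over the nTg libraries to 187 in SOD1G93A, a pooled ratio of 18.1 with a counting interval of 6.11 to 88.7 (95%). Its adjusted p was 0.0032 in SOD1G93A against nTg and 0.0018 in SOD1G93A/Clec7a-KO against Clec7a-KO. The fitted log2 value of the first, 4.01, was 3.09 without nTg replicate 1, 8.21 without nTg replicate 3 and 3.12 with sex as a covariate. That of the second, 3.48, was 4.198 without Clec7a-KO replicate 2. The observed mean in SOD1G93A microglia was 0.78 and the level expected from astrocyte RNA was 1.23, and the values were 0.52 and 1.11 in SOD1G93A/Clec7a-KO. The observed range over libraries was 0.651 to 0.891 in SOD1G93A, where the expected range was 1.07 to 1.40, and the part of free RNA in the microglial call was not tested.

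Timp3 fell in SOD1G93A/Clec7a-KO against Clec7a-KO microglia by 1.36 ± 0.35 on the log2 scale (adjusted p = 0.0062). Timp4 fell by 1.44 ± 0.54 (adjusted p = 0.041). Timp4 lost its call when Clec7a-KO replicate 1 was left out, where its log2 value was −0.75 (adjusted p = 0.25). The same happened without SOD1G93A/Clec7a-KO replicate 2 (0.055), 3 (0.090) or 4 (0.078), and with only the 2 groups fitted (0.055). In SOD1G93A against nTg neither passed in the main edgeR fit, with log2 fold changes of −0.96 ± 0.40 for Timp3 (adjusted p = 0.080) and −0.81 ± 0.62 for Timp4 (adjusted p = 0.34). Timp3 did pass there with DESeq2 (−1.01, adjusted p = 0.044) and without TMM (−1.42, 0.019). It also passed with a replicate block (−0.86, 0.023) and with only the 2 groups fitted (−0.98, 0.026). With library number as a covariate both passed, Timp3 at −1.41 (0.0030) and Timp4 at −1.79 (0.0016), although library numbers do not overlap between SOD1G93A and nTg. Mean levels of both lay under 5 CPM in every group, where free RNA would give 2.7 to 5.1 for Timp3 and 3.0 to 9.1 for Timp4.

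In astrocytes the fitted change of Timp1 was the largest among the 52 tests of a member in a class in both disease comparisons. Of 7 genes tested, Timp1, Timp2 and Adamts1 rose and Timp3 fell in SOD1G93A against nTg, where 33.7% of the 12524 genes tested were called. In SOD1G93A/Clec7a-KO against Clec7a-KO the same 4 changed in the same directions and Mmp12 was called as well, where 33.8% of genes were called. Astrocytes numbered 604 to 621 per nTg library, 274 to 1071 in Clec7a-KO, 208 to 333 in SOD1G93A and 32 to 425 in SOD1G93A/Clec7a-KO. Most nTg and Clec7a-KO astrocytes lay in cluster 9, while cluster 22, led by S100a6, A2m, Gfap, C3 and Serpina3n, held a larger part of those in the disease groups (1.98% ± 1.03 of SOD1G93A cells, with 1.70% ± 0.453 in cluster 9). The summed dissociation stress genes in astrocytes were 632 to 809 CPM in nTg, 605 to 1093 in Clec7a-KO, 1090 to 2174 in SOD1G93A and 1738 to 5049 in SOD1G93A/Clec7a-KO, and 13 of 22 rose in SOD1G93A against nTg, where 17.4% of genes did. Their part in the results was not tested.

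Timp1 was close to absent in astrocytes without the transgene, and passed the filter on low counts through the libraries that carry it. Its level was 1.43, 0 and 0.474 CPM in nTg and 3.65, 0.509, 0 and 0.8998 in Clec7a-KO. It was 155, 329 and 223 in SOD1G93A and 182, 322, 306 and 206 in SOD1G93A/Clec7a-KO. Every disease library exceeded every library without the transgene, where 49.5% of astrocyte genes had groups without overlap in the first comparison and 25.6% in the second. The log2 fold change was 8.41 ± 0.57 (95% interval 7.22 to 9.59, adjusted p = 9.2e-09) and 7.07 ± 0.46 (adjusted p = 4.5e-09), values that depend on the fit's prior count because the control levels are near 0. The first was 10.14 at a mitochondrial limit of 5% and 9.49 without nTg replicate 1, and the second 5.10 at that limit and 9.26 without Clec7a-KO replicate 1. A Timp1 UMI was found in 0.328% of nTg, 0.345% of Clec7a-KO, 34.3% of SOD1G93A and 36.6% of SOD1G93A/Clec7a-KO astrocytes. At 1000 UMIs per cell the shares were 0.0552%, 0.0934%, 14.97% and 18.5%. In microglia, read here as background, the thinned share was 0% in nTg and Clec7a-KO, 0.102% in SOD1G93A and 0.0701% in SOD1G93A/Clec7a-KO. The median astrocyte held 5148 to 6393 UMIs per nTg library and 2752 to 5394 per SOD1G93A library.

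The rise of Timp1 was seen in both astrocyte clusters. In cluster 9 its mean was 0.494 ± 0.485 in nTg and 177 ± 104 in SOD1G93A, and 0.417 ± 0.403 in Clec7a-KO and 182 ± 110.2 (n = 3) in SOD1G93A/Clec7a-KO. In cluster 22 it was 1.71 ± 2.97, 320.1 ± 110.2, 8.12 ± 16.2 and 367 ± 54.8 (n = 3) in the same order. The level was thus higher in cluster 22 of the disease groups, within overlapping spreads in SOD1G93A.

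Timp2 in astrocytes was 53.3, 40.7 and 49.98 CPM in nTg and 292, 339.9 and 308 in SOD1G93A. It was 64.7, 51.9, 38.6 and 44.1 in Clec7a-KO and 376, 727, 259 and 199 in SOD1G93A/Clec7a-KO. The groups did not overlap, and SOD1G93A/Clec7a-KO replicate 2 was the highest library. The log2 fold change was 2.70 ± 0.33 (adjusted p = 9.0e-06) and 3.00 ± 0.29 (adjusted p = 6.9e-07). Microglial RNA in the astrocyte barcodes also moved with the disease. All 12 microglia markers were detected there, at a summed 191 to 368 CPM in nTg and 1386 to 3134 in SOD1G93A. From them free RNA would give Timp2 at 57.9 (36.8 to 85.2 over libraries) in SOD1G93A, where 289 to 329 was observed without TMM. In SOD1G93A/Clec7a-KO it would give 139.8 (52.8 to 296), where 204 to 689 was observed. The part of that RNA in the calls was not tested.

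**Figure D4:**
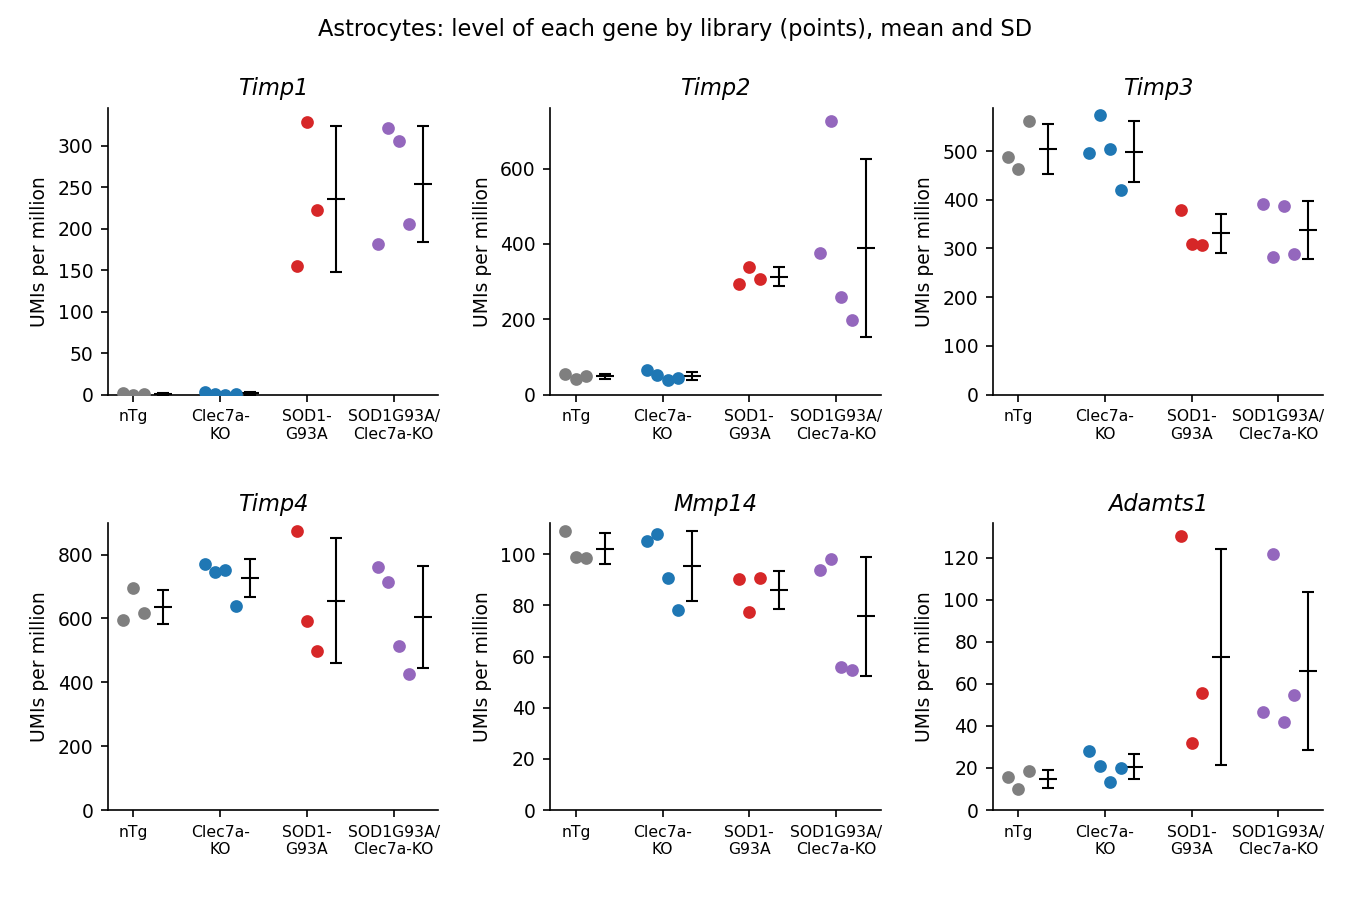
CPM in astrocytes for 6 genes, one point per library by group, with the group mean and SD. Timp1, Timp2 and Adamts1 are higher and Timp3 lower in the groups with the transgene, while the Timp4 groups overlap.

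Adamts1 in astrocytes was 15.7, 10.2 and 18.5 CPM in nTg and 130.2, 32.0 and 55.5 in SOD1G93A. It was 27.9, 20.9, 13.4 and 19.8 in Clec7a-KO and 46.4, 121, 41.6 and 54.8 in SOD1G93A/Clec7a-KO. The groups did not overlap, although the disease libraries were widely spread. Adamts1 rose by 2.22 ± 0.43 (adjusted p = 0.00068) and 1.70 ± 0.40 (adjusted p = 0.0028) on the log2 scale. The first value was 1.59 without SOD1G93A replicate 1, 1.47 with no doublets removed, 2.93 at a resolution of 0.5 and 2.83 with the members allowed in clustering, and was called in each. The second call was lost at a mitochondrial limit of 5% (0.83, adjusted p = 0.33) and with no doublets removed (0.77, adjusted p = 0.13).

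Timp3, the matrix-bound inhibitor, was the member that fell. Its level was 488, 464 and 561 CPM in nTg and 378, 309.6 and 307 in SOD1G93A. It was 496, 574, 504 and 421 in Clec7a-KO and 391, 283, 387 and 288 in SOD1G93A/Clec7a-KO. No library with the transgene reached the lowest library without it. The log2 fold change was −0.61 ± 0.19 (adjusted p = 0.019) and −0.55 ± 0.17 (adjusted p = 0.016). The first call was lost in 4 of 17 alternatives, without SOD1G93A replicate 2 (adjusted p = 0.078) or 3 (0.081) or nTg replicate 3 (0.088) and with sex as a covariate (0.061). The second was lost in 4 of 19, at a mitochondrial limit of 5% (adjusted p = 0.31), with only the 2 groups fitted (0.057), and without Clec7a-KO replicate 2 (0.055) or SOD1G93A/Clec7a-KO replicate 2 (0.067).

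Timp4 and Mmp14, the other abundant members in astrocytes, did not pass the test, although Mmp14 did in SOD1G93A against nTg with the library number as a covariate (−0.51, adjusted p = 0.023). Library numbers do not overlap between SOD1G93A and nTg. Timp4 was at 636 ± 52.2 in nTg, 727 ± 59.8 in Clec7a-KO, 656 ± 196 in SOD1G93A and 604 ± 160 in SOD1G93A/Clec7a-KO. Mmp14 was at 102 ± 6.06, 95.4 ± 13.7, 86.1 ± 7.51 and 75.7 ± 23.4 in the same order. Mmp12 in astrocytes rested on 18 UMIs in SOD1G93A/Clec7a-KO against 2 in Clec7a-KO (adjusted p = 0.0026), a pooled ratio of 28.6 with a counting interval of 6.85 to 254. It passed the filter on low counts only through libraries with the transgene, so this test is not independent of its high level there. The fitted log2 value of 4.57 was 5.92 with no doublets removed and 5.18 without SOD1G93A/Clec7a-KO replicate 1. In SOD1G93A against nTg astrocyte Mmp12 passed under 5 alternatives: DESeq2 (4.30, adjusted p = 0.029), members allowed in clustering (3.73, 0.020), no doublets removed (5.89, 0.00037), no filter on low counts (3.53, 0.017) and SOD1G93A replicate 2 left out (4.09, 0.034). Its observed mean of 4.75 without TMM (0 to 12.1 over libraries) lies beside the 14.7 (7.69 to 22.3) that microglial RNA would give, and the part of that RNA in the call was not tested.

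**Figure D5:**
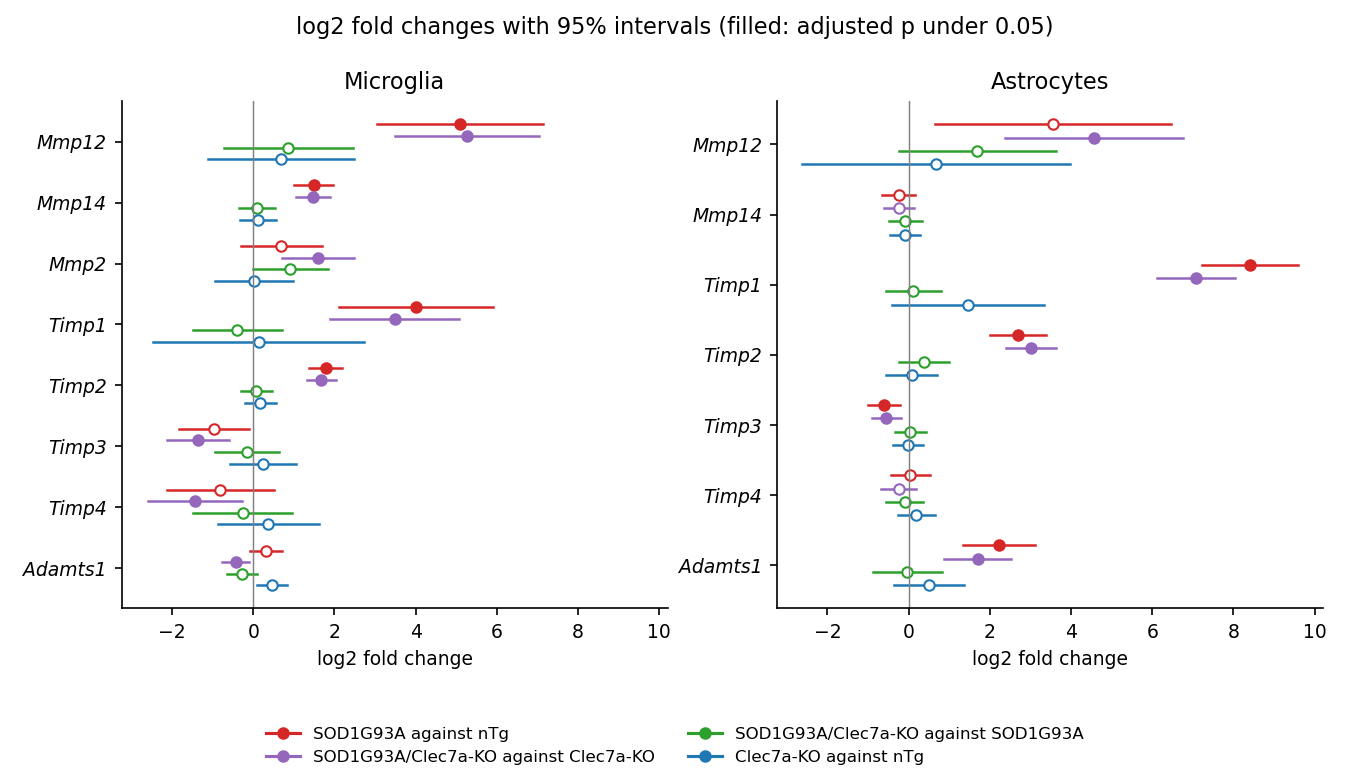
Log2 fold changes with 95% intervals in microglia and astrocytes for 4 comparisons, with filled points for an adjusted p under 0.05. The comparisons of disease with its matched control carry the filled points, and none is filled in the comparisons of Clec7a genotypes.

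Each of the other classes had between 0 and 2 calls per comparison. In endothelial cells 7 were tested. Timp2 rose in SOD1G93A against nTg (2.10 ± 0.37, adjusted p = 0.007), where 1.25% of genes were called, but not with sex as a covariate (adjusted p = 0.13). In SOD1G93A/Clec7a-KO against Clec7a-KO both Timp2 (1.85 ± 0.32, adjusted p = 0.0069) and Mmp12 (5.04 ± 0.76, adjusted p = 0.0021) rose, where 1.05% were called. Endothelial Timp2 was 10.0, 10.8 and 11.5 CPM in nTg, 48.6, 55.1 and 34.0 in SOD1G93A, 23.4, 10.1, 9.78 and 11.6 in Clec7a-KO and 53.9, 78.5, 45.2 and 24.0 in SOD1G93A/Clec7a-KO. Without TMM its disease means were 46.0 and 50.1, where microglial RNA would give 39.9 and 43.0, and the Mmp12 means were 1.19 and 4.17, where it would give 3.04 and 5.24. The part of that RNA in the calls was not tested. With no doublets removed the log2 values were 3.29 and 2.98 for Timp2 and 7.30 for Mmp12 in the second comparison, and the last was 7.85 without Clec7a-KO replicate 1. Endothelial Mmp12 also passed in SOD1G93A against nTg with DESeq2 (4.99, adjusted p = 0.014), with members allowed in clustering (4.45, 0.042), with no doublets removed (8.02, 0.00067), with no filter on low counts (4.50, 0.00049) and with a replicate block (4.51, 0.048). All 12 microglia markers were detected in endothelial cells, at a summed 126 to 212 CPM in nTg and 877 to 1862 in SOD1G93A.

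The 2 members that endothelial cells express most did not pass the test there. Timp3 was at 886 ± 98.1 in nTg, 981 ± 178 in Clec7a-KO, 927 ± 305 in SOD1G93A and 733 ± 197 in SOD1G93A/Clec7a-KO. Adamts1 was at 638 ± 206, 583 ± 201, 541 ± 135 and 419 ± 102 in the same order.

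In oligodendrocyte precursors 6 genes were tested and Adamts1 rose in both comparisons, where 1.54% and 3.81% of genes were called. Adamts1 was 60.4, 55.4 and 70.9 CPM in nTg and 99.5, 139 and 171 in SOD1G93A, a log2 fold change of 1.13 ± 0.19 (adjusted p = 0.004). It was 64.2, 75.9, 91.6 and 74.6 in Clec7a-KO and 117, 139.6, 114.9 and 119 in SOD1G93A/Clec7a-KO, a change of 0.69 ± 0.17 (adjusted p = 0.036). The groups did not overlap in either comparison, as held for 22.8% and 9.94% of genes. The second call did not hold in 9 of 19 alternatives, among them the omission of Clec7a-KO replicate 1 (0.096) or 2 (0.11) or of any SOD1G93A/Clec7a-KO replicate (0.053 to 0.079). The remaining 3 were library totals without TMM (0.057), no removal of doublets (0.053) and a fit of only the 2 groups (0.054). All 12 microglia markers were detected in these cells, at a summed 109 to 241 CPM in nTg, 509 to 2356 in SOD1G93A, 154 to 812 in Clec7a-KO and 710 to 2152 in SOD1G93A/Clec7a-KO. Their dissociation stress genes summed to 2014 to 3234, 2394 to 4092, 2757 to 4075 and 2813 to 4397 in the same order, and 1 of 22 rose in each comparison. The part of either in the rise of Adamts1 was not tested. Mmp2, highest in this class, was at 68.0 ± 7.14 in nTg, 74.3 ± 23.7 in Clec7a-KO, 79.4 ± 16.6 in SOD1G93A and 111 ± 18.99 in SOD1G93A/Clec7a-KO, and passed in neither comparison.

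Ependymal cells, which line the central canal, held Timp2 at 354 ± 16.1, 405 ± 34.8, 496 ± 41.7 and 526 ± 133 CPM in nTg, Clec7a-KO, SOD1G93A and SOD1G93A/Clec7a-KO. Of 6 genes tested there, 0 were called in SOD1G93A against nTg, where 0.968% of genes were, and Timp1 rose in SOD1G93A/Clec7a-KO against Clec7a-KO (3.39 ± 0.73, adjusted p = 0.026), where 1.28% were. Ependymal Timp1 rested on 24 UMIs against 4, and its log2 value was 3.98 without Clec7a-KO replicate 4. Its call was lost without Clec7a-KO replicate 2 (0.12) or 3 (0.095) and with sex as a covariate (0.052). In SOD1G93A against nTg, ependymal Mmp12 (14 UMIs against 0) passed with no filter on low counts (6.10, adjusted p = 8.3e-06). It also passed with no doublets removed (8.52, 0.00045) and with each library of these groups left out (0.012 to 0.049). Ependymal Timp1 passed there with no filter (2.39, 0.031) and with no doublets removed (2.69, 0.0061). The part of microglial or astrocyte RNA in these was not tested. In the endothelial and mural cluster 19, Timp1 (3.25 ± 0.77, adjusted p = 0.042) and Timp2 (2.19 ± 0.38, adjusted p = 0.006) rose in SOD1G93A/Clec7a-KO against Clec7a-KO, where 1.64% of genes were called, and neither passed with edgeR in SOD1G93A against nTg, where 0.841% were, while Timp1 did with DESeq2 (3.40, adjusted p = 0.044) and Timp2 with only the 2 groups fitted (1.56, adjusted p = 0.008) or a replicate block (1.54, 0.028), and both did with no filter on low counts. The cluster 19 call of Timp1 was lost without Clec7a-KO replicate 1 (0.093), 2 (0.15) or 3 (0.12) or SOD1G93A/Clec7a-KO replicate 3 (0.061). In cluster 19 without TMM, Timp2 averaged 15.98 CPM in Clec7a-KO and 72.3 in SOD1G93A/Clec7a-KO, where microglial RNA would give 4.24 and 60.5, and the microglia markers summed to 141 to 576 and 571 to 3843. Timp1 averaged 0.285 and 2.82, where astrocyte RNA would give 0.0184 and 2.44. The part of that RNA in the calls was not tested. In border-associated macrophages, mural cells and neurons 4 genes each were tested and 0 were called by the main edgeR fit in either comparison. The macrophage fit had 2 nTg libraries and the neuron fit 2 SOD1G93A/Clec7a-KO libraries, since libraries with under 20 cells of a class were left out. In SOD1G93A against nTg 0.146%, 0.12% and 0.363% of their genes were called, and in SOD1G93A/Clec7a-KO against Clec7a-KO 0.565%, 0.534% and 0.335%.

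Loss of Clec7a was examined on both backgrounds. Of the 52 tests of a member in a class, 0 were called in SOD1G93A/Clec7a-KO against SOD1G93A by edgeR's quasi-likelihood test and 0 by DESeq2, with 1 at an unadjusted p under 0.05 (Mmp12 in endothelial cells). Over all 9 classes together, 0.0121% of the tests of any gene were called in that comparison and 7.75% had an unadjusted p under 0.05. In Clec7a-KO against nTg 0 of 52 were called by either tool, with 5 at an unadjusted p under 0.05, where 0.0112% of all tests were called and 2.61% had such a p. With no filter on low counts 3 were called in that comparison, Mmp12 in border-associated macrophages (adjusted p = 1.4e-16), Adamts1 in neurons (4.6e-05) and Timp3 in neurons (0.0048). The 0.0112% belongs to the fit with the filter, and the share without it is not given here. Macrophage Mmp12 rested on 406 UMIs against 0 in 2 nTg libraries, at least 53.8-fold, or 5.01-fold without the highest Clec7a-KO library. Neuronal Adamts1 rested on 78 UMIs against 1. In the difference between both effects 0 were called by either tool, with 3 at an unadjusted p under 0.05, against 0.00187% and 2.28% of all tests, and Mmp12 in border-associated macrophages was called with no filter (adjusted p = 1.9e-12).

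The intervals show what sizes these libraries leave possible. In SOD1G93A/Clec7a-KO against SOD1G93A microglia, Timp2 differed by 0.07 (95% interval −0.30 to 0.45) and Mmp14 by 0.09 (−0.34 to 0.53) on the log2 scale. Astrocyte Timp1 differed by 0.12 (−0.56 to 0.79). Mmp12 and Mmp2 in microglia had wider intervals, 0.86 (−0.72 to 2.45) and 0.91 (−0.01 to 1.84), with adjusted p of 0.62 and 0.44. Replicates 3 and 4 of SOD1G93A/Clec7a-KO were the highest libraries for both genes, while replicates 1 and 2 (Mmp12 at 106 and 98.5) lay near the SOD1G93A range of 104 to 113. Replicates 3 and 4 carry the library numbers 13 and 15, replicates 1 and 2 the numbers 2 and 3, and the SOD1G93A libraries the numbers 1, 5 and 6. What sets replicates 3 and 4 apart was not tested.

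Adamts1 in microglia had the smallest unadjusted p of the interaction. It was higher in Clec7a-KO than in nTg by 0.46 ± 0.17 (unadjusted p = 0.019) and lower in SOD1G93A/Clec7a-KO than in SOD1G93A by 0.28 ± 0.17, a difference of −0.74 (95% interval −1.26 to −0.22, unadjusted p = 0.0082) that did not pass adjustment over all genes (adjusted p = 1).

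Related genes of matrix proteolysis were counted in the same fits. In microglia 7 of 19 other metalloproteinase genes were tested, of which 2 rose and 4 fell in SOD1G93A against nTg, where 19.9% of all microglial genes rose and 13.4% fell. Their median log2 fold change was −1.63, against 0.00606 over all genes. Mmp8, the neutrophil collagenase, rose by 5.53 ± 0.80 (adjusted p = 0.00015), and Mmp28 and Mmp11 fell by 2.09 ± 0.34 and 1.93 ± 0.47. Of the Adam sheddases 6 of 9 were tested, 4 rose and 0 fell (median 0.92), led by Adam33 (7.19 ± 0.51, adjusted p = 4.3e-07) and Adam8 (3.89 ± 0.35, adjusted p = 2.1e-06). Of 5 other Adamts genes, Adamts10 rose (0.81 ± 0.18) and Adamts6 fell (−1.10 ± 0.29).

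Among regulators of matrix proteolysis, 14 of 15 were tested in microglia, 7 rose and 1 fell (median 0.93). Over all genes tested in microglia, 19.9% rose and 33.3% were called. Plaur, the urokinase receptor, rose by 2.14 ± 0.51, while Serpinf1 fell by 2.18 ± 0.31. Of the matrix substrates 9 of 15 were tested, 2 rose (Fn1 by 5.90 ± 0.46 and Cspg4 by 5.83 ± 0.47) and 1 fell (Bcan by 1.62 ± 0.52). The substrate counts lay near the shares over all microglial genes. In astrocytes 7 of 14 regulators rose and 0 fell (median 1.97), where 17.4% of all astrocyte genes rose and 16.3% fell (median −0.0176). The 7 were led by Serpinf1 (4.22 ± 0.70), Plaur (3.80 ± 0.73) and Plau (3.103 ± 0.89). The microglia markers in astrocytes, at 191 to 368 CPM in nTg and 1386 to 3134 in SOD1G93A, moved with this list, and their part was not tested. Serpinf1 had opposite signs in the 2 classes, a difference that was not itself tested.

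Astrocyte matrix genes went both ways, with 5 of 12 higher and 4 lower, where 17.4% of all astrocyte genes rose and 16.3% fell. The microglia markers in astrocytes also moved over this comparison, and Fn1 rose in microglia as well. The part of microglial RNA in these changes was not tested. Fn1, fibronectin, rose by 4.79 ± 0.52 and Tnc, tenascin C, by 2.75 ± 0.32, while Hapln1, a link protein of perineuronal nets, fell by 1.95 ± 0.50. Mmp19 (2.15 ± 0.46) and Adamts5 (1.56 ± 0.20) rose and Adamts6 (−1.60 ± 0.33) fell in the same cells. In endothelial cells Plau (4.37 ± 0.79), and in ependymal cells Plaur (3.38 ± 0.48) and Plau (3.22 ± 0.52), were the regulators called, 1 and 2 of the 13 tested, where 1.25% and 0.968% of all genes were called. Summed microglia markers ran from 126 to 212 CPM in nTg and 877 to 1862 in SOD1G93A endothelial cells, and from 117 to 172 and 686 to 2279 in ependymal cells, and their part in these calls was not tested. No gene of these lists was called in SOD1G93A/Clec7a-KO against SOD1G93A in microglia, astrocytes, endothelial or ependymal cells.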

How the data were processed

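Single cells of whole spinal cord were captured with 10x 3′ chemistry after perfusion, warm enzymatic dissociation and removal of myelin, per the labels' protocols. The deposited matrices hold raw counts of UMIs per gene and barcode, with software version 3.0.2 per the file headers. The submitters' processing notes name Cell Ranger, Seurat, DESeq2 and mm10. The annotation and the use of strand are not given in the sources used here. Of 55335 versioned gene identifiers, 54587 were found in GENCODE vM21.

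A barcode was kept when it held 500 or more genes and 1000 or more UMIs, of which up to 15% could be mitochondrial. The cells with the highest Scrublet scores were removed as doublets, at 0.8% per 1000 barcodes. Clustering (scanpy 1.11.5) used 2000 variable genes, 30 components, 15 neighbours and resolution 1.0, with no integration. The variable genes left out the 9 members and the listed genes of matrix proteolysis, the synapsin host genes and dissociation stress. The alternative with members allowed in clustering allowed the listed genes as well. This gave 28 clusters, which were named from marker genes, and clusters with mixed or too few markers stayed unnamed. UMIs were summed per library and class. Libraries with at least 20 cells were fitted with edgeR 4.0.16 (R 4.3.3; TMM, filterByExpr, quasi-likelihood, one term per group, all 14 libraries, two-sided), with Benjamini-Hochberg adjustment over all genes of the class and a threshold of 0.05. The SE is the absolute log2 fold change over the square root of F. The fit was tested on simulated data. Intervals of log2 fold changes rest on this SE, and so include the spread between libraries. The counting intervals of pooled ratios and the floor of 3 UMIs cover counting error only. The labels do not say whether libraries came from separate animals, so p-values measure the spread between libraries, which may be technical. Columns of other samples left out numbered 0.

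The members, the gene lists and the tests were chosen with earlier results of these data known. All 9 members are named. List genes are named when they passed in SOD1G93A against nTg or SOD1G93A/Clec7a-KO against SOD1G93A, at most 3 per list, class and comparison. One gene that this rule would name is not reported here. Shares of cells were thinned to 1000 UMIs. The alternatives were DESeq2 1.42.0, no filter on low counts, no TMM, no doublets removed, a mitochondrial limit of 5%, resolution 0.5, members allowed in clustering, only the 2 groups compared, covariates for sex (read from Xist) or library number, a replicate block, each library left out, and microglia without or with a doubtful cluster.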

Additional observations from a re-analysis of the deposited data

Results flagged for a closer look

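Within groups of 4 libraries, 10 of 68 sets of values had 1 library far from the others by Dixon's test, where chance gives about 1 in 20. That rate does not apply to the Mmp12 set of endothelial cells, in which a single Clec7a-KO library held any UMI. Clec7a-KO replicate 1 accounted for 5 of them. In its endothelial cells Timp2 was at 23.4 CPM against 9.78 to 11.6 in the other 3 libraries, Mmp14 at 2.38 against 0.405 to 0.477 and Mmp12 at 0.397 against 0. In its microglia Timp3 was at 6.54 against 3.04 to 3.40 and Timp4 at 9.74 against 2.50 to 3.23. In SOD1G93A/Clec7a-KO, replicate 2 had Adamts1 at 121 in astrocytes against 41.6 to 54.8 and at 139.6 in oligodendrocyte precursors against 114.9 to 119. Replicate 1 of that group had microglial Timp3 at 2.81 against 1.04 to 1.23, and replicate 3 had endothelial Mmp12 at 6.88 against 3.16 to 3.49. In Clec7a-KO replicate 3, Mmp14 in oligodendrocyte precursors was low, at 25.1 against 43.6 to 46.9. These differences between libraries of one group were not tested further.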

How the results depend on the processing

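None of the 29 member calls reversed its direction under any alternative run, while the difference of microglial Adamts1 in SOD1G93A against nTg, which was not called, changed sign without TMM. All 29 calls of a member held under DESeq2, which added 5, and all 29 under the replicate block, which added 4: Timp2 in cluster 19 (1.54 on the log2 scale, adjusted p = 0.028), Mmp12 in endothelial cells (4.51, 0.048) and Timp3 in microglia (−0.86, 0.023) in SOD1G93A against nTg, and Mmp2 in oligodendrocyte precursors (0.59, 0.037) in SOD1G93A/Clec7a-KO against Clec7a-KO. Libraries with the same replicate number were somewhat more alike than others, with a higher median correlation of their deviations in every class fitted. In microglia same-numbered pairs correlated from −0.18 to 0.38, with a median of 0.0889 against −0.0373 for other pairs. There 7 of 14 libraries correlated best with their own number. In endothelial cells, cluster 19 and ependymal cells the range also began below 0, with medians of 0.138, 0.126 and 0.111 against −0.0966, −0.0968 and −0.0287 for other pairs, and 8, 8 and 6 of 14 libraries correlated best with their own number. For microglia in SOD1G93A against nTg, 7 members were called with library number as a covariate (reported 4), adding Mmp2 (1.36), Timp3 (−1.41) and Timp4 (−1.79). The SOD1G93A libraries carry the numbers 1, 5 and 6 and the nTg libraries 8, 9 and 12. Library number and group thus cannot be fully told apart in that comparison. With no filter on low counts 23 calls were gained over all classes and comparisons, and with no doublets removed 16. Calls over all genes also moved with the setting. In SOD1G93A against nTg, DESeq2 called 5968 of 16439 microglial and 228 of 13080 endothelial genes, where edgeR called 5470 and 164. In astrocytes DESeq2 called 3917 of 12524 and edgeR 4225. For the other settings such counts are not given here, so the member counts are not read as particular to these genes. Endothelial cells, ependymal cells and oligodendrocyte precursors together (reported 2) gave 8 calls with no doublets removed, 5 with no filter on low counts and 1 with sex as covariate. In SOD1G93A/Clec7a-KO against Clec7a-KO, astrocytes (reported 5) gave 2 at a mitochondrial limit of 5%, 3 with only the 2 groups compared, and 3 to 5 with a library left out. The 3 other classes (reported 4) gave 10 with no doublets removed, 2 with only the 2 groups compared, and 2 to 4 with a library left out. The lowest of these counts came without Clec7a-KO replicate 2 or SOD1G93A/Clec7a-KO replicate 2 in both sets, and without SOD1G93A/Clec7a-KO replicate 3 in the second. Beyond the construction of each alternative, the cause of these shifts was not tested. Depth limits Timp1 outside astrocytes and Mmp12 outside myeloid cells, where a group held few UMIs.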

Other observations

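Clusters left without a class held some of these genes at high levels, pooled over libraries. Cluster 23, with 150 cells and fibroblast genes among its leaders, held Timp3 at 1048 CPM, Mmp14 at 54.9 and Mmp2 at 37.0. Of its 107 Timp1 UMIs 92 came from Clec7a-KO replicate 2, and its Timp1 level was 60.0 with that library and 9.4995 without it. Border-associated macrophages, the other resident myeloid class, held Timp2 at means of 387 in nTg (2 libraries), 370.0 in Clec7a-KO, 710 in SOD1G93A and 775 in SOD1G93A/Clec7a-KO. The change in SOD1G93A/Clec7a-KO against Clec7a-KO passed with DESeq2 (1.09 on the log2 scale, adjusted p = 0.0043) but not in the main edgeR fit. With edgeR it passed with library number as a covariate (1.06, 0.036), with no filter (1.12, 0.017) and without Clec7a-KO replicate 4 (1.26, 0.043).

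Mmp12 in border-associated macrophages was spread over libraries in an order unlike that of microglia. No UMI was seen in the 2 nTg libraries, and Clec7a-KO replicates 1 to 4 held 688, 17.5, 74.3 and 6.58 CPM. SOD1G93A replicates held 0, 29.8 and 71.2, and SOD1G93A/Clec7a-KO replicates 2.78, 104, 8.22 and 7.59. Pooled over libraries, Clec7a-KO was at least 53.8-fold higher than nTg, taking 3 UMIs over the nTg group as the floor, and at least 5.01-fold higher without Clec7a-KO replicate 1, the highest library. Mmp12 in this class was not called in any comparison by edgeR with the filter on low counts. Without the filter it was called in Clec7a-KO against nTg (adjusted p = 1.4e-16), SOD1G93A against nTg (5.5e-05) and SOD1G93A/Clec7a-KO against Clec7a-KO (1.2e-11).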
